A study of Mus musculus with 4 samples.

Results

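Cycling T cells with abundant transcripts of the granule protease gene Gzma were examined in a droplet expression study of graft-versus-host disease. A T cell was a barcode with at least 1000 UMIs (unique molecular identifiers, each counting 1 captured RNA molecule), at least 500 genes, at most 10% mitochondrial UMIs and at least 1 UMI of Cd3e, Cd3d or Cd3g. Such a cell was counted as cycling and Gzma-high if at least 4 of 8 cycle genes (Mki67, Rrm2, Ube2c, Nusap1, Birc5, Pclaf, Hist1h2ap and Stmn1) had a UMI and Gzma made up at least 1% of its UMIs. These cells numbered 2000 of 34829 T cells, namely 1270 of 18972 in replicate 1 (6.69%, exact binomial interval 6.34 to 7.06%) and 730 of 15857 in replicate 2 (4.60%, 4.28 to 4.94%). The 95% intervals here and below cover counting error only. The comparison cells were non-cycling (at most 1 of the 8 genes) and Gzma-high, with 5457 and 3756 cells in replicates 1 and 2, or cycling with Gzma below 1% of UMIs, with 1131 and 874 cells.

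All classes come from the same pools of sorted cells and share their genotype. The labels give CD4 T cells of the strain BALB/c RAG2-/- TS1 Tg, taken by flow sorting from mice with graft-versus-host disease at 4 weeks after transplantation. Spleen, colon, skin, small-intestinal intraepithelial lymphocytes and small-intestinal lamina propria were hashed with antibodies and pooled into 1 expression library and 1 hashtag library per replicate. The hashtag matrices as read here hold 0 hashtag features, so no cell has a tissue. Classes that differ in expression may also differ in tissue of origin, and these cannot be told apart. The labels do not say whether the 2 replicates are separate animals. With the replicate as a block, p-values measure how far class differences vary between these 2 pools, which may be technical.

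TS1 is a transgenic T cell receptor for a peptide of influenza hemagglutinin, and without RAG2 a T cell cannot rearrange receptor genes of its own. Granzyme A is a protease that cytotoxic lymphocytes store in granules and release into target cells. In the gut epithelium of mice, CD4 T cells can take on a program with granzymes, the integrin chain CD103 (gene Itgae), which binds E-cadherin, and CD8α homodimers (gene Cd8a) without the CD8β chain (Cd8b1), while the CD4 lineage factor ThPOK (Zbtb7b) declines and Runx3 is used. A dividing T cell first copies its DNA in S phase under E2F-driven genes and then passes through G2 and mitosis under genes whose promoters carry CCAAT boxes and cell cycle homology regions.

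The promoters of 3 of the cycle genes and of Gzma are shown because the class was cut on these genes. The 3 were picked with their matches known from 6 cycle genes in the table. Each runs from 250 bases before to 50 bases after the annotated start, 5′ to 3′ along the gene, from RefSeq's table on GRCm38.p6. Capitals mark a match on either strand to CCAAT, to TTTGAA or TTTAAA (the core of a cell cycle homology region) or to the E2F-like sequences TTTCCCGC and TTTGGCGC. Adjoining matches can share letters. The coordinates are chr2:164769679-164769978 on the plus strand for Ube2c, which encodes a ubiquitin-conjugating enzyme of mitotic exit, and chr7:135716330-135716629 on the minus strand for Mki67, which encodes the chromosome-coating protein Ki-67. They are chr12:24708004-24708303 on the plus strand for Rrm2, a subunit of ribonucleotide reductase, and chr13:113100932-113101231 on the minus strand for Gzma.
Ube2c: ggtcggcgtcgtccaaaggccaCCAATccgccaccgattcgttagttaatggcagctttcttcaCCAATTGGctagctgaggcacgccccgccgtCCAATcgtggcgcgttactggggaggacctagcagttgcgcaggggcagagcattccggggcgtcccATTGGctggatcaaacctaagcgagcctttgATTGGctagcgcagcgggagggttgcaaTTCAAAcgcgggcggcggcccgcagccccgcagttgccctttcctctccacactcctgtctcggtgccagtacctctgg
Mki67: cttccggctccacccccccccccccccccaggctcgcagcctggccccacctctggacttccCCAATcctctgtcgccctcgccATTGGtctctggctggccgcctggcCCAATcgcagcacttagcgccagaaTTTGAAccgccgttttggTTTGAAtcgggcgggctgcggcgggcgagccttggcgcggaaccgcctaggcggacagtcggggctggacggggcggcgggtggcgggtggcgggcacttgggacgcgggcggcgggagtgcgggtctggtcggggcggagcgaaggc
Rrm2: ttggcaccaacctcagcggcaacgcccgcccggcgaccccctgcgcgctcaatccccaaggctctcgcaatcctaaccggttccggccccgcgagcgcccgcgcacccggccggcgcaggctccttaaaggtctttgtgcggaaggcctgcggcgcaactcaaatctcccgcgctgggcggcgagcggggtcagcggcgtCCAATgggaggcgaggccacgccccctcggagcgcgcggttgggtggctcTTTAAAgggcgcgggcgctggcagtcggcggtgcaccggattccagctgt
Gzma: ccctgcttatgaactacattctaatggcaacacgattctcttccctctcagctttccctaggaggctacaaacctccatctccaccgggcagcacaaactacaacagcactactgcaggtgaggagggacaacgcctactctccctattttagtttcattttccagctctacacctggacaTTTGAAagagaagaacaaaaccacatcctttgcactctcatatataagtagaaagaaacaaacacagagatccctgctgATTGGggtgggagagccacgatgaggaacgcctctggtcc

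The Ube2c window held 6 CCAAT matches and 1 TTTGAA match that began 29 bases before the start on the opposite strand. In the Mki67 window there were 3 CCAAT and 2 TTTGAA matches, and in the Rrm2 window 1 CCAAT match and 1 TTTAAA match. Gzma had 1 TTTGAA match and, past its start, 1 CCAAT match on the opposite strand. Of the cycle genes not shown, Pclaf had 2 CCAAT, 1 TTTAAA and 1 TTTCCCGC match, Birc5 had 1 TTTAAA and no CCAAT match, and Nusap1 had no match at all, so the cycle genes were not alike in these letters. Over all 27025 promoters of the table, 37.9% held CCAAT, 18.1% TTTGAA, 13.2% TTTAAA, 1.11% TTTCCCGC and 0.537% TTTGGCGC, and 10.9% held CCAAT together with TTTGAA or TTTAAA. Of the 29 S phase genes listed below, 24 were in the table, and 5 of these (20.8%) held TTTGGCGC, 4 (16.7%) TTTCCCGC and 14 (58.3%) CCAAT. These matches describe letters in a window and not binding.

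The cells were chosen by their own UMIs of the 8 cycle genes and of Gzma, so the levels of these 9 genes are a description without a test. Summed over cells and scaled to 1000000 UMIs per class and library (CPM), Mki67 stood at 171 CPM in replicate 1 and 185 CPM in replicate 2 in the cycling Gzma-high cells, against 10.4 and 8.02 CPM in the non-cycling Gzma-high cells. Rrm2 was at 843 and 715 CPM against 25.4 and 14.5 CPM, and Ube2c at 562 and 465 CPM against 15.0 and 10.7 CPM. Nusap1 and Birc5, genes of spindle assembly and chromosome segregation, Pclaf, a PCNA-binding factor, and Stmn1, a microtubule regulator, were likewise higher in both libraries. Hist1h2ap, a replication-dependent histone gene with near-identical copies that share reads, was the least alike between libraries, at 247 and 706 CPM in the cycling cells against 2.16 and 9.26 CPM in the non-cycling cells. Gzma itself (mm10, chromosome 13, 113093825 to 113100981) was at 34399 and 35992 CPM in the cycling cells, 40826 and 39422 CPM in the non-cycling Gzma-high cells, and 1261 and 1066 CPM in the cycling Gzma-low cells. Per cell, Gzma took a median of 2.75% and 3.77% of UMIs in the cycling Gzma-high cells, against 3.05% and 3.82% in their non-cycling counterparts. In replicate 1, 108 cycling cells lay just above the 1% limit (1% to 1.25%, median 1.11%) and 94 just below it (0.8% to 1%, median 0.895%). In replicate 2 these numbers were 15 (median 1.13%) and 14 (median 0.902%).

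**Figure D1:**
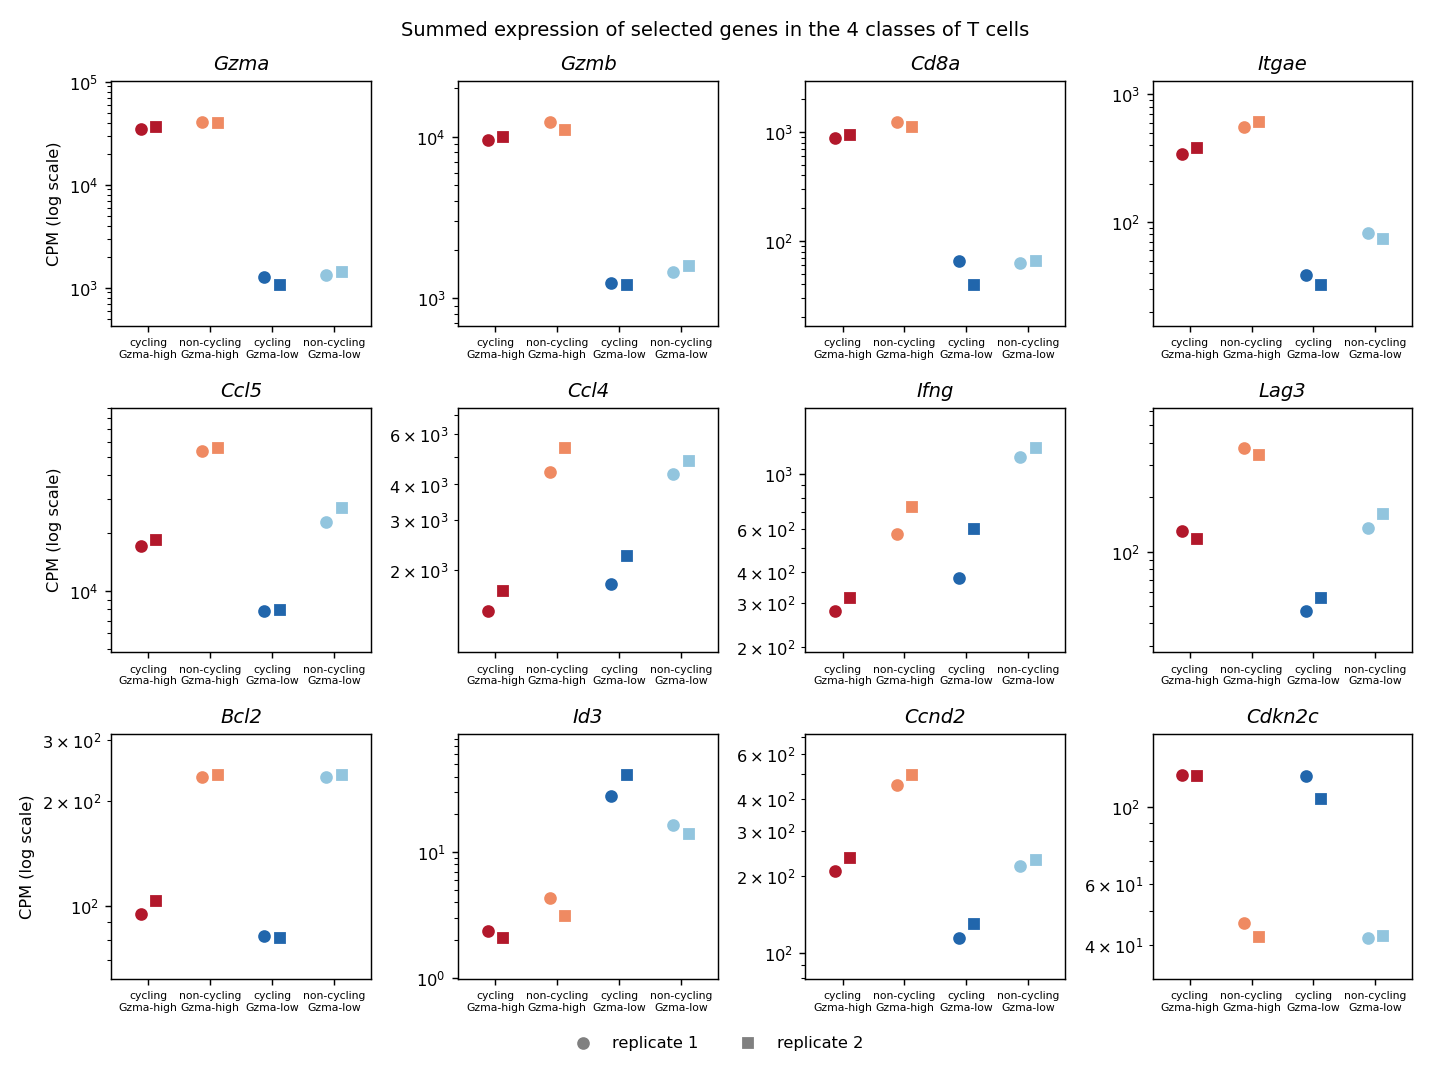
Summed expression (CPM, log axis) of 12 genes in the 4 classes of T cells, from left to right cycling Gzma-high, non-cycling Gzma-high, cycling Gzma-low and non-cycling Gzma-low; circles are replicate 1 and squares replicate 2, 1 point per library. Gzma and Gzmb differ mainly by Gzma class, Ccl4, Ifng, Bcl2 and Cdkn2c by cycling class, and Ccl5, Lag3, Ccnd2 and Itgae by both.

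Cycling cells were found across the Gzma range, and their share was lowest at the top of it in both libraries, at full depth and after thinning. Both measures were used to choose the cells, so these shares are a description without a test. Of T cells with Gzma at 2% to 4% of UMIs, 565 of 3203 (17.6%) in replicate 1 and 349 of 2383 (14.6%) in replicate 2 had at least 4 of the 8 cycle genes. The share was 12.6% and 12.7% at 4% to 8%, and 2 of 121 (1.65%) and 1 of 101 (0.990%) at 8% or more. Below 0.25% it was 9.78% and 9.02%. At 0.25% to 1% the libraries differed, with 15.0% in replicate 1 and 5.42% in replicate 2. With every cell thinned at random to 1500 UMIs before the rule was applied, the share at 2% to 4% was 12.5% and 8.17%, that at 8% or more 2.34% and 0.971%, and that below 0.25% 6.34% and 4.89%. In replicate 1 the 1% to 2% bin (12.3%) then lay beside the 2% to 4% bin, and without shared barcodes it was the higher of these bins (11.2% against 10.5%). At full depth without shared barcodes, replicate 1 had 15.0% (13.8 to 16.4%) at 2% to 4% and 14.0% (12.6 to 15.5%) at 0.25% to 1%. In replicate 2 at full depth with shared barcodes kept, the intervals at 2% to 4% (13.2 to 16.1%) and at 4% to 8% (11.4 to 14.1%) overlapped. No maximum could therefore be placed in either library.

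**Figure D2:**
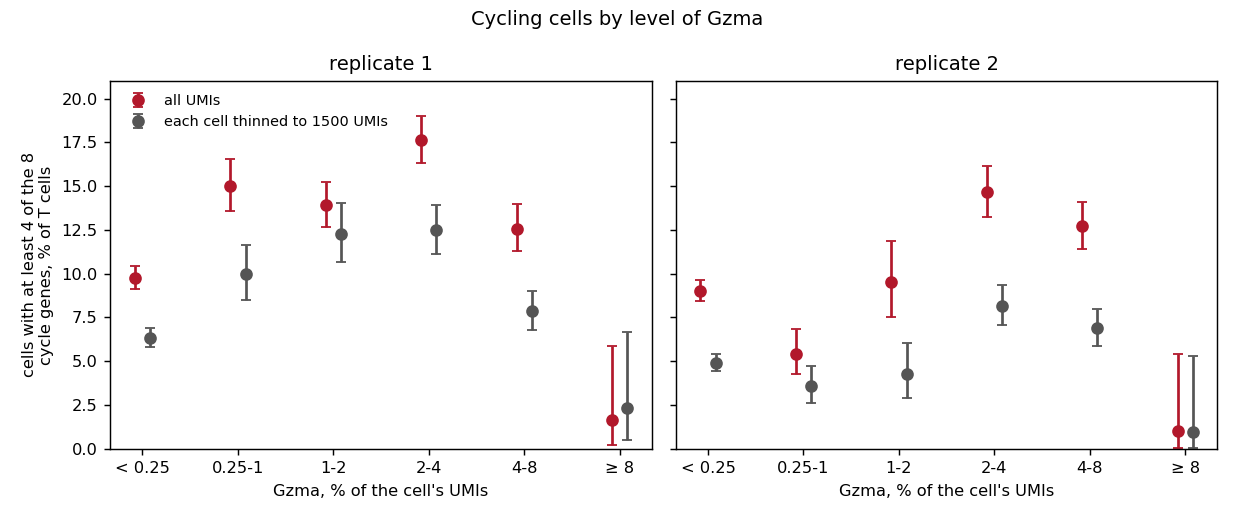
Share of T cells with at least 4 of the 8 cycle genes (%, vertical axis) by the share of the cell's UMIs that are Gzma (horizontal axis, bins), at full depth in red and with each cell thinned to 1500 UMIs in grey; bars are exact binomial 95% intervals. The 2% to 4% bin reaches 17.6% in replicate 1 and 14.6% in replicate 2 at full depth, and the bin at 8% or more holds 1.65% and 0.990%.

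The cycling Gzma-high cells had more UMIs per cell than the non-cycling Gzma-high cells in both libraries, and were not all alike. Their median was 4188.5 UMIs in replicate 1 and 11393 UMIs in replicate 2, against 2716 and 4026 UMIs in the non-cycling Gzma-high cells and 6132 and 8772 UMIs in the cycling Gzma-low cells. In replicate 1 they fell into a shallow and a deep part. There, 546 cells (43.0%) had under 3000 UMIs, with 21990 CPM of Gzma and 51855 CPM of Actb (β-actin), and 435 cells had 8000 to 20000 UMIs, with 38872 CPM of Gzma and 29684 CPM of Actb. The shallow cells gave 10.5% of the UMIs of the summed class. In replicate 2, 81 cells (11.1%) were under 3000 UMIs and 465 had 8000 to 20000. Gzma-high cells with all 8 cycle genes numbered 251 and 269, with median depths of 13807 and 14516 UMIs and Gzma at a median 3.83% and 3.75% of UMIs. Since more UMIs make 4 detected genes more likely, membership and depth are linked by the rule. The counts of calls among cells of 3000 to 8000 UMIs are therefore given at the end of each comparison.

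**Figure D3:**
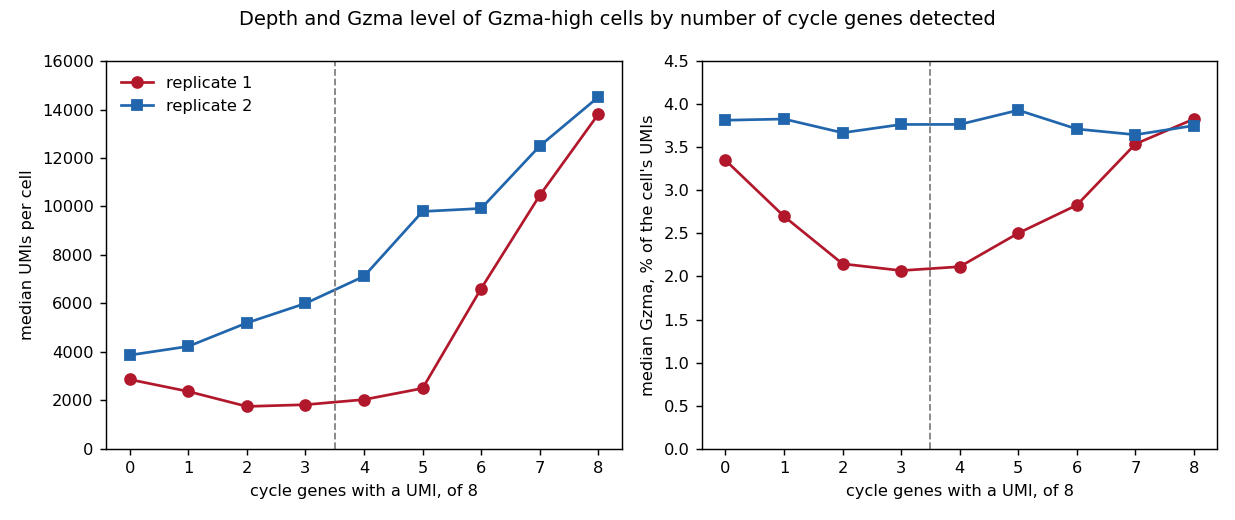
Median UMIs per cell (left) and median share of UMIs that are Gzma (right, %) of Gzma-high T cells by the number of the 8 cycle genes with a UMI; circles are replicate 1, squares replicate 2, and the dashed line marks the limit of 4 genes for membership. Cells with all 8 genes have medians of 13807 and 14516 UMIs, and in replicate 1 the cells around the limit are the shallowest and lowest in Gzma.

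The libraries limit what these cells can show. A barcode kept in both libraries occurred 599 times, 359 times with at least 8-fold more UMIs in replicate 1 (median ratio 15.1) and 154 times with at least 8-fold more in replicate 2 (median ratio 21.3). Such shared barcodes carried 223 (17.6%) and 146 (20.0%) of the cycling Gzma-high cells, against 59 (1.08%) and 87 (2.32%) of the non-cycling Gzma-high cells. At least 3 markers of 1 other cell type were detected in 65 (5.12%) and 215 (29.5%) of the cycling Gzma-high cells, against 2.71% and 13.2% of the non-cycling Gzma-high and 11.3% and 29.5% of the cycling Gzma-low cells. The 7 neutrophil markers summed to 1902 and 1889 CPM in them, against 282 and 795 CPM in the non-cycling Gzma-high and 9772 and 19977 CPM in the cycling Gzma-low cells, with 2411 and 3267 CPM in free RNA (barcodes under 100 UMIs). They were concentrated in the deepest cells, at 6394 and 5682 CPM above 20000 UMIs. The 6 basophil and mast markers summed to 160 and 16.3 CPM, against 21.4 and 8.02 CPM in the non-cycling Gzma-high cells and 105 and 67.7 CPM in free RNA. The 9 myeloid and antigen presenting markers summed to 267 and 349 CPM, against 269 and 278 CPM in the non-cycling Gzma-high cells and 504 and 519 CPM in free RNA. Over the 7 B and plasma cell markers the sum was 7.27 and 8.14 CPM, with Pax5 at 0 UMIs in both libraries. The 7 stromal and endothelial markers summed to 4.71 and 5.28 CPM, the 8 epithelial markers to 19.6 and 26.8 CPM, and the 8 erythroid markers to 22.1 and 19.3 CPM. Free RNA itself held Gzma at 12296 and 13671 CPM and Ccl5 at 26963 and 30096 CPM. The part of these features in the results was not tested beyond the values given without shared barcodes or without cells with such markers.

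The first comparison asks how cycling Gzma-high cells differ from non-cycling cells of the same Gzma range. Division genes, which go with the genes that chose the cells, were higher in the cycling cells, as were genes of nucleotide synthesis and oxidative phosphorylation. Chemokines, cytokines, receptors, immediate early genes and residency genes took a smaller share of the cycling cells' RNA. On the sums of raw counts per class and library, edgeR's quasi-likelihood test with Benjamini-Hochberg adjustment called 6483 of 12510 genes at an adjusted p under 0.05 (51.8%), 3327 higher (26.6%) and 3156 lower (25.2%). Without the S phase, mitosis and histone lists these shares were 51.5%, 26.2% and 25.4%. Of the genes called, 971 were at least 2-fold higher and 469 at least 2-fold lower. The order of the classes was the same in both libraries for 6477 of the 6483, so a shared order does not set a named gene apart. How many of all genes have classes that do not overlap was not counted, here or in the second comparison. The median log2 fold change over all genes tested was -0.05. In a sum over cells, fewer cells with a transcript and less of it per cell cannot be told apart, and each value is a share of the class's RNA.

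Genes of the cycle go with the genes that chose the cells, and are given as a description. The same holds for cycle-linked genes in the lists that follow, such as Cdkn3, Tuba1b, Hmgb2, Dck and Shmt1. All 29 S phase genes (median log2 fold change 2.49) and all 33 genes of G2 and mitosis (median 4.22) were higher, as were 13 of 17 histone genes (median 2.02). Bub1, a kinase of the spindle checkpoint, was at 52.3 and 47.4 CPM in the cycling cells against 1.25 and 1.36 CPM in the non-cycling cells, and Cdc6, a loader of the replication helicase, at 46.8 and 45.4 CPM against 2.73 and 2.32 CPM. Among the largest rises outside all lists were genes of the same kind: Esco2 and Sgo1 (sister chromatid cohesion), Knl1 and Cenpm (kinetochore), Pbk, Shcbp1, Mxd3 and Ckap2l, with log2 fold changes between 4.45 and 4.92. Of 16 cyclin, Myc and E2f genes, 12 were higher and 1 lower (median 1.22). E2f8, an E2F repressor of the S to G2 period, stood at 27.0 and 26.6 CPM against 0.965 and 1.19 CPM, and Mybl2, a partner of the mitotic gene activators, at 32.9 and 33.6 CPM against 1.93 and 1.81 CPM. The D-type cyclin Ccnd2, which links growth signals to cycle entry, went the other way. It was at 209 and 236 CPM in the cycling cells and 456 and 498 CPM in the non-cycling cells, with no overlap (log2 fold change -1.03 ± 0.05, SE).

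Genes that brake the cycle split by kind. Of 16 such genes 6 rose and 8 fell (median -0.16), against 26.6% and 25.2% of all genes. Cdkn2c (p18INK4c), an inhibitor of CDK4 and CDK6, was at 124 and 123 CPM in the cycling cells and 46.3 and 42.1 CPM in the non-cycling cells, a log2 fold change of 1.56 ± 0.06. Cdkn2a (1.69 ± 0.07) and Cdkn2d (0.76 ± 0.05), of the same INK4 family, and Cdkn3, a CDK phosphatase of mitosis (4.23 ± 0.10), also rose. By contrast Cdkn1b (p27), which holds resting cells in G1, was at 53.01 and 61.2 CPM against 107.6 and 115 CPM (-0.89 ± 0.07). Btg1, an antiproliferative gene of quiescent lymphocytes, was at 984 and 1147 CPM against 3073 and 3436 CPM (-1.54 ± 0.05). In both genes the 2 cycling values lay below both non-cycling values. Outside the lists, Mxd4, a Myc antagonist, fell by 1.54 ± 0.08, and Tcp11l2 (-2.11 ± 0.14) and Phf1, a chromatin reader (-1.66 ± 0.08), had the largest falls.

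Genes for growth rose in most lists. All 18 nucleotide and one-carbon synthesis genes rose (median 1.52), and 21 of 22 genes for tubulins, chromatin and nuclear transport (median 1.85). Dck, the salvage kinase for deoxynucleosides, was at 56.8 and 57.4 CPM in the cycling cells against 10.8 and 10.2 CPM in the non-cycling cells. Shmt1, a one-carbon enzyme of thymidylate synthesis, was at 15.0 and 11.9 CPM against 1.42 and 0.621 CPM. Tuba1b, an α-tubulin gene, had a log2 fold change of 3.36 ± 0.08, and Hmgb2, a chromatin protein of dividing cells, one of 2.61 ± 0.05. Oxidative phosphorylation genes rose in 18 of 20 cases with 1 fall (median 0.59), proteasome genes in 14 of 16 (0.46) and glycolysis genes in 10 of 16 with 1 fall (0.43). The mitochondrial electron carrier Cycs (1.19 ± 0.06) and the glycolytic isomerase Tpi1 (1.53 ± 0.08) led these lists, while the glucose transporter gene Slc2a3 fell by 1.02 ± 0.08. Cholesterol synthesis genes rose in 11 of 15 cases (0.43), led by the farnesyl synthase gene Fdps (1.10 ± 0.10), and ribosomal protein genes in 15 of 20 with 2 falls (0.29). Among cells of 3000 to 8000 UMIs, where 11.4% of all genes were higher and 7.10% lower, 3 of 15 cholesterol genes rose (median 0.14). There, 2 of 20 ribosomal genes rose and 5 fell (median -0.02), and nucleotide genes rose in 15 of 18 cases (median 1.22).

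**Figure D4:**
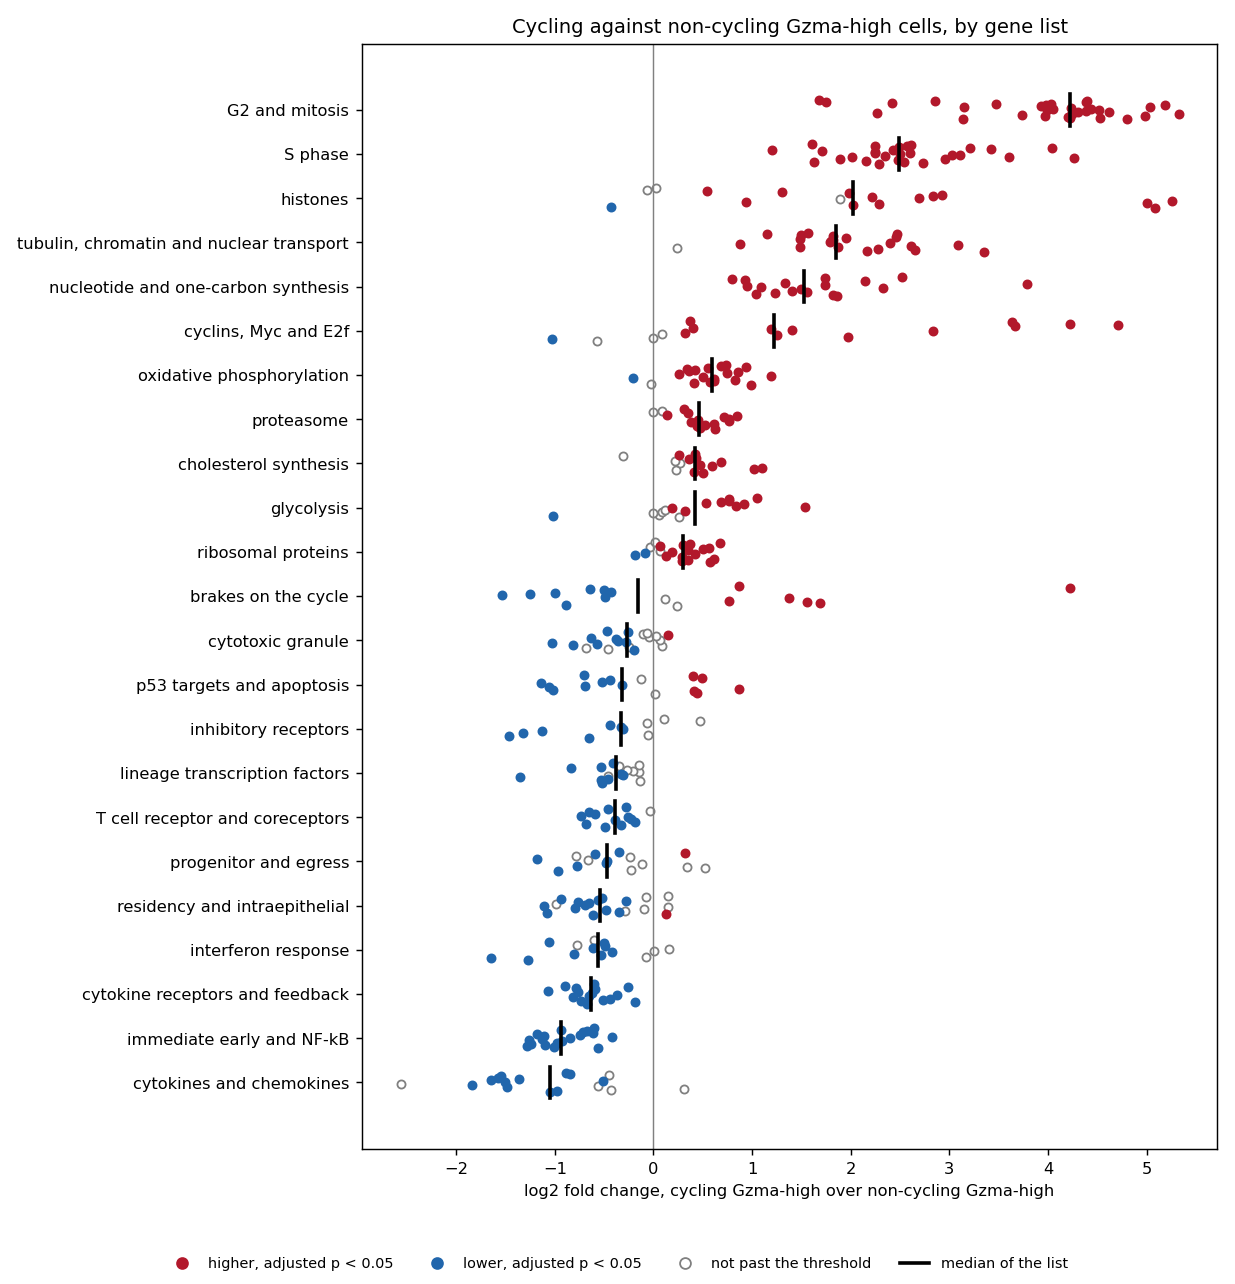
log2 fold change of cycling over non-cycling Gzma-high cells (horizontal axis) for each tested gene of the lists shown, 1 point per gene. Filled points passed an adjusted p of 0.05 (red higher, blue lower), open points did not, and black ticks are list medians. Medians run from 4.22 for G2 and mitosis to -1.05 for cytokines and chemokines.

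The effector genes that T cells secrete were lower. Of 17 cytokine and chemokine genes, 12 fell and 0 rose (median -1.05). Ccl5, a chemokine that draws T cells and monocytes (mm10, chromosome 11, 83525778 to 83530518), was at 17109 and 18434 CPM in the cycling cells against 53579 and 55350 CPM in the non-cycling cells, a log2 fold change of -1.54 ± 0.04 (edgeR adjusted p = 5.86e-10). Ccl4, a chemokine of activated T cells, was at 1431 and 1683 CPM against 4412 and 5363 CPM (-1.57 ± 0.04, edgeR adjusted p = 6.65e-10). The cycling and non-cycling libraries did not overlap for either, although the cycling values of Ccl5 also lay below free RNA. Ifng, the type 1 cytokine, was at 278 and 314 CPM against 571 and 733 CPM (-1.05 ± 0.11), with Ccl3 at -1.36 ± 0.12 and Csf2 (GM-CSF) at -1.51 ± 0.23. At 3000 to 8000 UMIs, 3 of the 17 genes fell, and Ifng (-0.46) and Csf2 (-0.11) no longer passed. Ccl4 and Ccl5 fell under every alternative tried, between -1.98 and -1.33 for Ccl4 and between -1.64 and -1.20 for Ccl5.

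The granule genes moved less. Of 20 cytotoxic granule genes 1 rose and 10 fell (median -0.27). Gzmb, encoding granzyme B, stood at 9490.3 and 9941 CPM in the cycling cells and 12374 and 11054 CPM in the non-cycling cells, a log2 fold change of -0.20 ± 0.05 that was -0.31 in replicate 1 and -0.07 in replicate 2 and lost its call among cells of at least 3000 UMIs. Prf1 (perforin) was at 46.5 and 52.0 CPM against 90.1 and 92.1 CPM (-0.82 ± 0.07), and Fasl, the death ligand, at 59.0 and 67.7 CPM against 130 and 143 CPM (-1.03 ± 0.05). Nkg7, a granule membrane protein, fell by 0.57 ± 0.04. For Prf1, Fasl and Nkg7 both cycling values were below both non-cycling values.

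Residency genes fell in 13 of 20 cases and rose in 1 (median -0.54). Itgae (mm10, chromosome 11, 73090583 to 73147446) was at 339 and 382 CPM in the cycling cells and 558 and 608 CPM in the non-cycling cells (log2 fold change -0.62 ± 0.08). Itga1, the collagen-binding partner of a residency integrin, was at 59.3 and 68.9 CPM against 130 and 154 CPM (-1.08 ± 0.05), and Cxcr6, a chemokine receptor of resident T cells, at 251 and 258 CPM against 557 and 599 CPM (-1.11 ± 0.06). Cd69, which keeps cells in tissue by opposing S1PR1, fell by 0.79 ± 0.06. Cd8a (mm10, chromosome 6, 71373427 to 71379173) was at 888 and 948 CPM against 1246 and 1121 CPM and did not pass (-0.29 ± 0.13, edgeR adjusted p = 0.0917), although it did under 9 of 21 alternatives. Cd8b1 was at 53.01 and 50.2 CPM against 88.8 and 75.0 CPM (-0.59 ± 0.09). Cd4 was at 120 and 138 CPM against 220 and 230.5 CPM (-0.74 ± 0.05).

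Receptors and signalling genes fell together. T cell receptor and coreceptor genes fell in 12 of 13 cases (median -0.39), such as Cd3g, a CD3 chain, at 2021 and 2081 CPM in the cycling cells against 3508 and 3458 CPM in the non-cycling cells. Cells of every class were kept for a UMI of Cd3e, Cd3d or Cd3g, so the values of these genes are a description. Cytokine receptor and feedback genes fell in 16 of 16 (median -0.64), among them the feedback inhibitor Socs3 (-0.90 ± 0.11). Immediate early and NF-κB genes, which respond within minutes to receptor signals and to handling, fell in 19 of 19 (median -0.94). Jun, an AP-1 subunit, was at 223 and 320.0 CPM against 534 and 852 CPM (-1.27 ± 0.10), with both cycling values below both non-cycling ones. Nr4a3, a nuclear receptor gene that marks receptor signalling, had a log2 fold change of -1.28 ± 0.16, and Tnfaip3, the NF-κB inhibitor A20, one of -1.18 ± 0.10. At 3000 to 8000 UMIs the falls numbered 9 of 13, 6 of 16 and 10 of 19 for these 3 lists, with 0 rises.

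Inhibitory receptor genes fell in 7 of 11 cases and rose in 0 (median -0.33). Lag3, a receptor that binds MHC class II, was at 130 and 117 CPM in the cycling cells against 372 and 343 CPM in the non-cycling cells (log2 fold change -1.46 ± 0.10), and Ctla4, which competes for CD28 ligands, at 92.5 and 129 CPM against 215 and 298 CPM (-1.13 ± 0.06). Klrd1 (CD94), of the gamma-delta, NK and innate lymphoid list, was at 320 and 276 CPM against 855 and 741 CPM. Of 10 genes tested in that list 5 fell and 2 rose (median -0.52). Of the lineage factors, 9 of 16 fell and 0 rose (median -0.38). Zbtb7b was at 2.76 and 3.41 CPM against 8.97 and 7.57 CPM (-1.35 ± 0.17), and Runx3 fell by 0.46 ± 0.05.

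Some survival and progenitor genes fell. Of 15 progenitor and egress genes 1 rose and 7 fell (median -0.47). Bcl2, which protects from apoptosis, was at 94.8 and 103 CPM in the cycling cells against 234 and 237 CPM in the non-cycling cells (-1.18 ± 0.05). Tcf7, the factor of stem-like T cells, was at 7.57 and 6.05 CPM against 15.2 and 12.9 CPM (-0.96 ± 0.11), and Il7r, the receptor chain for interleukin 7, at 29.3 and 30.0 CPM against 56.1 and 50.5 CPM (-0.77 ± 0.07). With each cell thinned to 1500 UMIs before the sums, Tcf7 (-0.20) and Il7r (-0.29) no longer passed. Of 15 p53 and apoptosis genes 5 rose and 8 fell. The BH3-only killer Bcl2l11 (BIM) was at 15.0 and 16.4 CPM against 35.2 and 37.6 CPM, a log2 fold change of -1.14 ± 0.08. Interferon response genes fell in 9 of 14 cases (median -0.57), such as the regulator Irf7 (-0.81 ± 0.06).

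Of the markers of other cell types, 6 of 7 neutrophil genes were higher in the cycling than in the non-cycling Gzma-high cells (median 1.96). S100a8, a calcium-binding protein of neutrophils, was at 697 and 740.02 CPM against 85.1 and 278 CPM (2.28 ± 0.28). Among cells of 3000 to 8000 UMIs 6 of 7 were higher as well (median 2.71). Basophil and mast genes rose in 3 of 6 cases with 0 falls (median 2.67), and myeloid and antigen presenting genes rose in 1 of 9 and fell in 1. Leaving out cells with markers of other types selects on these same genes, so their values after it are not read. Without shared barcodes 5927 genes were called, with 24.1% of all genes higher and 25.8% lower. The counts higher and lower were then 0 and 12 of 17 for cytokines and chemokines and 1 and 10 of 20 for granule genes. They were 0 and 13 of 20 for residency genes and 0 and 19 of 19 for immediate early genes. Of 81 named genes called in the comparison, 79 were called without shared barcodes. Among cells of 3000 to 8000 UMIs 2030 of 10983 genes were called, 1250 higher (11.4%) and 780 lower (7.10%). The rises there numbered 14 of 20 for oxidative phosphorylation, 9 of 16 for the proteasome and 7 of 16 for glycolysis. Residency genes fell in 11 of 19 cases, granule genes in 7 of 20, inhibitory receptors in 3 of 11, lineage factors in 3 of 15, interferon genes in 3 of 14 and progenitor genes in 1 of 15. Genes that brake the cycle rose in 7 of 16 cases and fell in 4, and p53 and apoptosis genes rose in 1 of 15 and fell in 4. The list medians kept their sign except those of the brakes (0.012) and the ribosomal proteins.

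The second comparison sets the cycling Gzma-high cells against the cycling Gzma-low cells, and so shows what goes with Gzma among dividing cells. It shares the sums of the cycling Gzma-high cells with the first comparison. Residency and intraepithelial genes and cholesterol synthesis genes were higher in the Gzma-high cells, and progenitor genes and cytokine genes lower. Of 12510 genes, edgeR's quasi-likelihood test with Benjamini-Hochberg adjustment called 5296 (42.3%), 2328 higher (18.6%) and 2968 lower (23.7%). Of these, 416 were at least 2-fold higher and 1637 at least 2-fold lower, and the median over all genes was -0.01. The order of the classes was the same in both libraries for 5288 of the 5296 genes called.

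Residency and intraepithelial genes rose in 17 of 20 cases and fell in 1 (median log2 fold change 2.51). Like the other lists, this one was chosen with earlier results of these data known, so its count is not independent support. Its genes Cd8a and Itgae were also given beforehand as markers of the cycling Gzma-high cells. Cd8a was at 888 and 948 CPM in the Gzma-high and 65.2 and 39.5 CPM in the Gzma-low cycling cells (4.20 ± 0.15, edgeR adjusted p = 2.40e-08). Itgae was at 339 and 382 CPM against 38.6 and 32.3 CPM (3.40 ± 0.09, edgeR adjusted p = 4.84e-09). The gaps between these classes were far wider than those between libraries. Cd244 (2B4), a receptor of cytotoxic cells, was at 119 and 131 CPM against 8.79 and 7.34 CPM, and Actn2, an actin cross-linker, at 431 and 438 CPM against 47.9 and 38.7 CPM. Cd8b1 was at 53.01 and 50.2 CPM against 23.8 and 23.8 CPM (1.16 ± 0.11), and its call was lost at 3000 to 8000 UMIs (0.51). Tcrg-C4, a γ receptor constant gene in cells that cannot rearrange it, was at 318 and 376 CPM against 28.3 and 25.2 CPM. Its list, of gamma-delta, NK and innate lymphoid markers, did not move as one: of 10 genes tested 4 rose and 4 fell (median 0.17). Outside the lists, Cd200r4, Prrt1, Abi3, Asb2 and Acpp had log2 fold changes between 2.96 and 3.26.

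Granule genes were mixed, with 7 of 20 higher and 8 lower (median -0.06). Gzmb was at 9490.3 and 9941 CPM in the Gzma-high against 1234 and 1209 CPM in the Gzma-low cycling cells (3.04 ± 0.06), and the granule protease inhibitor gene Serpinb6b (1.40 ± 0.07) and the death ligand gene Tnfsf10 (1.12 ± 0.06) rose too. Ccl5 was at 17109 and 18434 CPM against 7821 and 7981 CPM, a log2 fold change of 1.22 ± 0.04. Lag3 rose by 1.32 ± 0.11 and Cd200, an inhibitory ligand, by 2.03 ± 0.12. Klrg1, a receptor of terminal effector cells, was at 5.01 and 5.61 CPM against 38.0 and 40.7 CPM (-2.84 ± 0.13), and Pdcd1 (PD-1) fell by 1.39 ± 0.07.

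Progenitor and egress genes fell in 13 of 15 cases and rose in 1 (median -1.51). Id3, an inhibitor of E proteins that marks memory precursors, was at 2.35 and 2.09 CPM in the Gzma-high against 28.0 and 41.4 CPM in the Gzma-low cycling cells (-3.91 ± 0.28). Slamf6, a receptor of progenitor T cells, was at 5.73 and 5.72 CPM against 29.6 and 26.0 CPM (-2.23 ± 0.12). Tcf7 fell by 2.00 ± 0.11, S1pr1, the egress receptor, by 2.37 ± 0.25, and its activator Klf2 by 1.77 ± 0.07. Eomes, a T-box factor, was at 14.9 and 13.2 CPM against 73.9 and 69.3 CPM, whereas Ikzf2 (Helios) was at 137 and 166 CPM against 48.7 and 50.8 CPM. In each of these genes the libraries of the 2 classes did not overlap.

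Cytokine and chemokine genes fell in 12 of 17 cases and rose in 2 (median -1.23). Csf2 was at 21.1 and 19.0 CPM in the Gzma-high against 97.5 and 142 CPM in the Gzma-low cycling cells (-2.54 ± 0.23). The type 2 cytokine gene Il13 was at 12.8 and 7.92 CPM against 49.3 and 46.6 CPM, and the CCR8 ligand gene Ccl1 at 61.8 and 45.2 CPM against 300 and 424 CPM. The costimulatory receptor gene Cd28 was at 56.4 and 61.1 CPM against 207 and 207 CPM, the 1 fall among 13 T cell receptor and coreceptor genes, of which 10 rose (median 0.69). Without shared barcodes 8 of these rose and 3 fell. The list includes Cd3e, Cd3d and Cd3g, on which cells of every class were kept, so their part in these counts is a description.

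**Figure D5:**
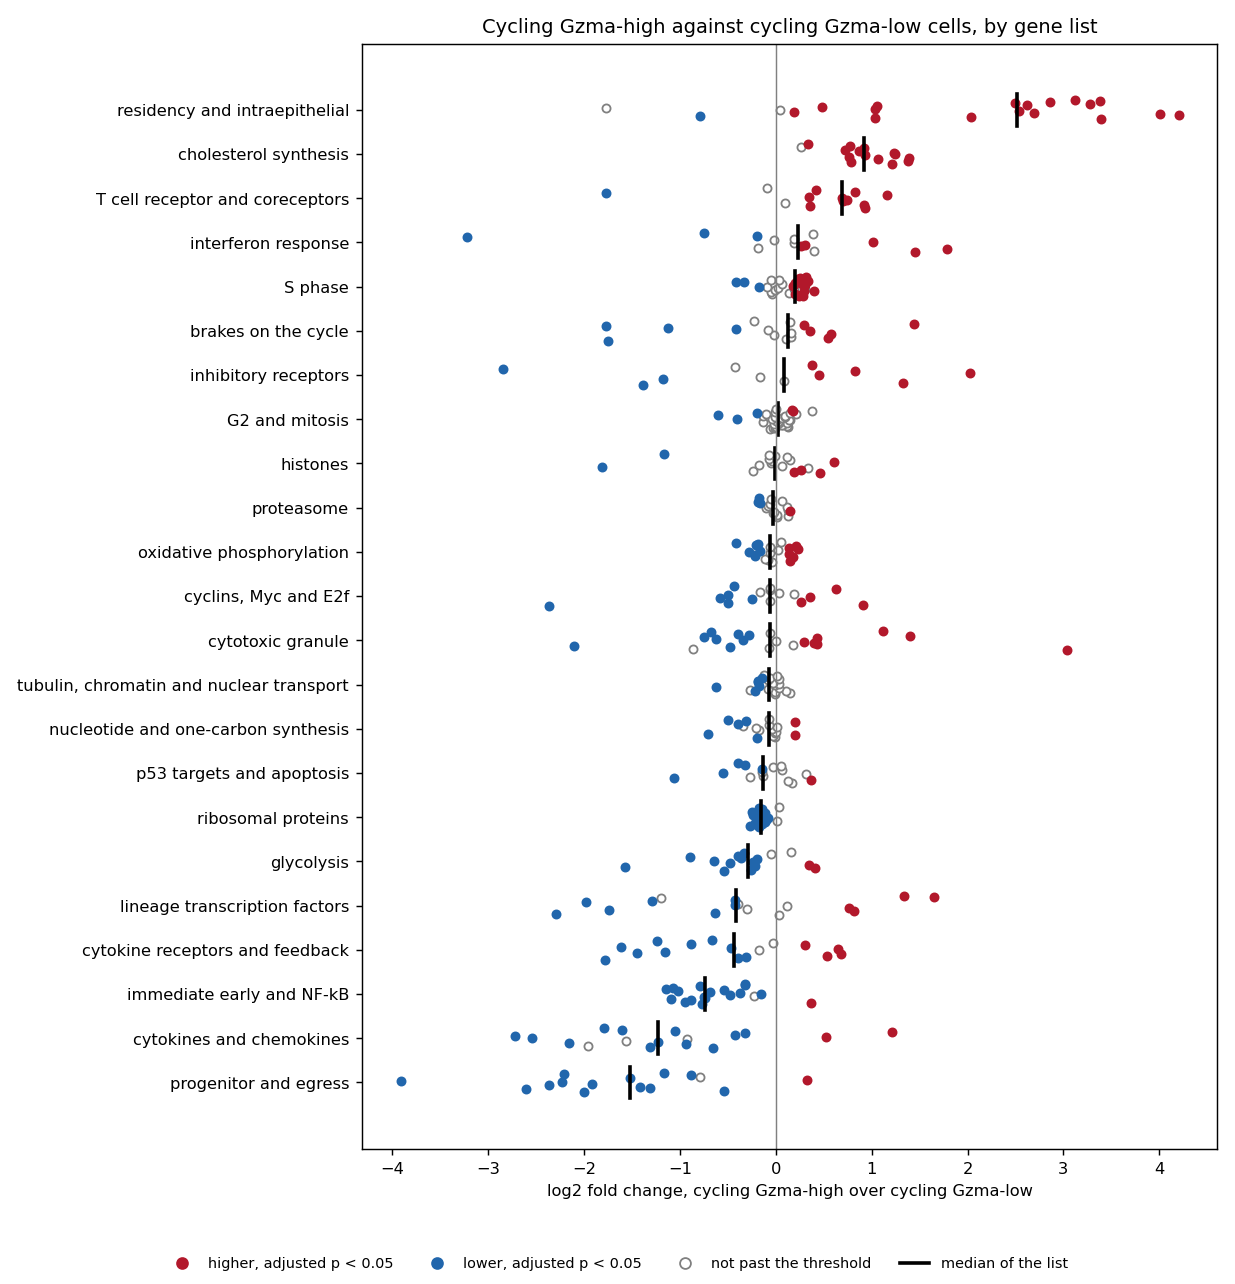
log2 fold change of cycling Gzma-high over cycling Gzma-low cells (horizontal axis) for each tested gene of the lists shown, 1 point per gene. Filled points passed an adjusted p of 0.05 (red higher, blue lower), open points did not, and black ticks are list medians. Medians run from 2.51 for residency and intraepithelial genes to -1.51 for progenitor and egress genes, with 0.03 for G2 and mitosis.

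Metabolic lists did not move as one. Cholesterol synthesis genes rose in 14 of 15 cases (median 0.92), with Fdps at 317 and 266 CPM in the Gzma-high against 107 and 122 CPM in the Gzma-low cycling cells (1.39 ± 0.11). The enzyme genes Mvd (1.38 ± 0.13) and Cyp51 (1.23 ± 0.09) rose alike, and at 3000 to 8000 UMIs 11 of 15 still rose. Glycolysis genes fell in 12 of 16 cases and rose in 2 (median -0.29), such as Hk2, a hexokinase (-1.57 ± 0.24), and Pgam1 (-0.89 ± 0.07). Ribosomal protein genes fell in 18 of 20 by small amounts (median -0.16). S phase genes rose in 15 of 29 cases with 3 falls (median 0.20), but at 3000 to 8000 UMIs 0 rose and 4 fell. Genes of G2 and mitosis rose in 2 of 33 cases and fell in 3 (median 0.03), and over 21 alternatives 0 to 14 rose and 0 to 10 fell, with medians from -0.33 to 0.17. Cdkn1a (p21), an inhibitor of cyclin-dependent kinases, was at 17.7 and 21.9 CPM against 67.7 and 69.2 CPM (-1.75 ± 0.11), and Ccnd2 at 209 and 236 CPM against 115 and 130 CPM (0.91 ± 0.05). Isg15, an interferon-induced ubiquitin-like protein, was at 332 and 463 CPM against 117 and 120 CPM (1.78 ± 0.09). It was the largest rise of the interferon response list, which did not move as one: 5 of 14 genes rose and 3 fell (median 0.23, lowest value -3.22).

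Of the markers of other cell types, all 7 neutrophil, all 8 erythroid and all 6 tested epithelial genes were lower in the Gzma-high cycling cells. Basophil and mast genes fell in 2 of 6 cases and myeloid and antigen presenting genes in 6 of 9, with 0 rises. Without cells carrying such markers, residency genes still rose in 15 of 20 cases with 3 falls, progenitor genes fell in 13 of 15 and cholesterol genes rose in 15 of 15. In that setting 15.2% of all genes were higher and 18.2% lower. Without shared barcodes the counts were 15 rises and 2 falls, 13 falls and 15 rises for these lists. There, 3865 genes were called in all, with 13.7% of all genes higher and 18.9% lower. Between 3000 and 8000 UMIs 1342 of 10983 genes were called, 631 higher (5.75%) and 711 lower (6.47%). There residency genes rose in 15 of 19 cases and fell in 2, and progenitor genes fell in 10 of 15 and cytokine genes in 7 of 17. Glycolysis genes fell in 8 of 16 cases, ribosomal genes in 9 of 20 and genes of G2 and mitosis in 9 of 33, with 0 rises, and granule genes rose in 5 of 20 and fell in 5. Over 21 alternatives the falls ranged between 2 and 13 for glycolysis and between 0 and 18 for ribosomal genes.

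The shares of cells with a transcript follow from cells thinned to 1500 UMIs, which leaves 1111 and 685 cycling Gzma-high cells (159 and 45 shallower ones left out). Cd8a had a UMI in 61.7% (exact interval 58.8 to 64.6%) and 69.6% (66.0 to 73.1%) of them, against 69.7% and 67.7% of the non-cycling Gzma-high and 11.1% and 5.11% of the cycling Gzma-low cells. The 2 Gzma-high classes were thus ordered differently in the 2 libraries. Itgae was detected in 37.2% and 44.7% of the cycling Gzma-high cells, against 53.9% and 59.0% of the non-cycling Gzma-high and 7.72% and 4.88% of the cycling Gzma-low cells. Both genes had a UMI in 23.9% and 31.5% of the cycling Gzma-high cells, against 40.9% and 42.8% of the non-cycling ones, and neither had one in 25.0% and 17.2%, against 17.3% and 16.1%. Before thinning, Cd8a was found in 80.1% and 91.9% and Itgae in 66.6% and 89.2% of the cycling Gzma-high cells, at median depths of 4188.5 and 11393 UMIs.

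Cells of 2 kinds served as background. Those without CD3 transcripts that carried at least 3 markers of another type were few. At 1500 UMIs, 1 of 14 (7.14%, 0.181 to 33.9%) and 0 of 12 (up to 26.5%) of them had Cd8a, and 1 of 14 and 1 of 12 had Itgae, at median depths before thinning of 3379 and 3205 UMIs. The others were kept cells, with or without CD3 transcripts, in which at least 4 neutrophil markers were found, with median depths of 3930.5 and 6761 UMIs. They were not kept apart from the classes, so cycling Gzma-high cells can be among them. In this group, 33.3% and 26.9% had Cd8a and 16.7% and 20.6% had Itgae at 1500 UMIs. Before thinning 44.4% and 45.01% had Cd8a and 33.8% and 39.1% had Itgae. For both genes the interval of the cycling Gzma-high cells at 1500 UMIs lay above those of both backgrounds in each library, although Itgae was found in a minority of the cells. Cd4 was detected in 17.7% and 20.9% of the cycling Gzma-high cells, against 27.3% and 28.8% of the non-cycling Gzma-high cells. It was in 14.6% and 20.0% of the cells with neutrophil markers, and in 0 of 14 (up to 23.2%) and 0 of 12 (up to 26.5%) of the cells without CD3 transcripts. The Cd4 share of the cycling cells is therefore not read as above background. Gzmb was found in 96.5% and 96.8% of the cycling Gzma-high cells, against 98.8% and 97.7% of the non-cycling ones. It was in 35.7% and 25.0% of the cells without CD3 transcripts and 67.7% and 67.8% of the cells with neutrophil markers. Tcf7 had a UMI in 1.80% and 1.17% of the cycling Gzma-high cells, against 1.87% and 1.62% of the non-cycling ones. For Ifng the shares were 32.7% and 27.9%, against 38.2% and 44.0%, with 31.2% and 37.2% in the cells with neutrophil markers. Tcf7 was in 0 of 96 (up to 3.77%) and 5.28% of these, so its share is not read.

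S phase and mitotic UMIs were also counted per cell. At 1500 UMIs a cell held on average 5.40 and 6.15 UMIs of the S phase list and 7.41 and 7.84 UMIs of the G2 and mitosis list, against 1.45 and 1.32 and 1.04 and 1.07 UMIs in the non-cycling Gzma-high cells. At these few UMIs counting error alone splits cells into more S phase and more mitotic ones, and its part was not tested. More G2 and mitosis than S phase UMIs were found in 54.5% (51.5 to 57.4%) and 49.6% (45.8 to 53.4%) of the cycling Gzma-high cells, and in 59.9% and 54.3% of the cycling Gzma-low cells. Cells with more S phase UMIs were 37.5% and 43.6% of the cycling Gzma-high class, with a median Gzma share of 2.93% and 3.73%, against 2.80% and 3.73% in those with more mitotic UMIs. All these cells were chosen for Gzma at 1% or more, so these medians are a description. Without shared barcodes they were 3.03% and 3.80% in the S phase-rich against 2.60% and 3.77% in the mitosis-rich cells. Cd8a was detected in 65.5% and 68.6% of the S phase-rich and 58.5% and 71.2% of the mitosis-rich cells, in a different order in the 2 libraries.

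Whether the Gzma-related difference of a gene was another in cycling than in non-cycling cells was tested with an interaction term of the same edgeR fit. It called 856 of 12510 genes (6.84%), 430 higher (3.44%) and 426 lower (3.41%), and 53 without shared barcodes. Itgae was at 339 and 382 CPM in cycling Gzma-high, 38.6 and 32.3 CPM in cycling Gzma-low, 558 and 608 CPM in non-cycling Gzma-high and 82.5 and 74.03 CPM in non-cycling Gzma-low cells, a difference of log2 differences of 0.48 (SE 0.12, adjusted p = 0.0432 by edgeR). The log2 difference of Itgae between Gzma-high and Gzma-low cells was thus larger among cycling cells. The call held in 7 of 20 alternatives, and the value was -0.062 at 3000 to 8000 UMIs.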

How the data were processed

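The deposited values are counts, raw UMI counts per gene and barcode over all 6794880 barcodes and 31053 genes, which the authors made with Cell Ranger 3.1.0 against mm10, per the submitters' processing notes. Totals were 89427990 and 108082997 UMIs for the expression libraries of replicates 1 and 2, and 80.0% and 73.4% of these lay in the 19020 and 15898 kept cells (median 2688 and 3699 UMIs). The feature lists hold 0 hashtag features.

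Counts were summed per class (cycling or not, Gzma-high or Gzma-low) and library, giving 8 sums in 1 fit with 3 residual degrees of freedom. Cells with 2 or 3 of the 8 cycle genes were left out. Genes were tested by quasi-likelihood in edgeR 4.0.16 (under R 4.3.3), after TMM scaling and filterByExpr, with the replicate as a block because each pool supplies all 4 classes. The threshold was a Benjamini-Hochberg adjusted p of 0.05. The 8 cycle genes and Gzma, 9 genes in all, were not tested. Cd3e, Cd3d and Cd3g, which defined T cells in every class, were tested. The fit was tested on simulated counts. Shares used cells thinned to 1500 UMIs (seed 20) and exact binomial 95% intervals (Python 3.11.15, scipy 1.17.1, scanpy 1.11.5). Scrublet by its own threshold found 0 doublets in either library, which means that it did not work, so no cell was removed as a doublet. Dropping the top 8% of doublet scores per library was an alternative. Gene positions are from GENCODE's mm10 annotation. For promoters, the first RefSeq entry of a symbol was used, and 7 of the 9 genes had one.

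Alternatives tried were DESeq2 1.42.0, RLE size factors, no low-count filter, no replicate block, a fit of the compared classes alone, thinning to 1500 UMIs before the sums or before the rule, cells of 3000 to 8000 UMIs, other limits for cycle genes and Gzma, and leaving out high doublet scores, cells with markers of other types or each replicate. Chosen after seeing the data were scaling to total UMIs only, Gzma at 1% to 3%, cells of at least 3000 or 8000 UMIs, and leaving out shared barcodes, cross-library copies or several of these together, and for the share of T cells also 3000 to 8000 UMIs and leaving out cells with markers of other types. The members and gene lists were chosen with earlier results of these data known. Genes were named by a rule: a fixed panel, up to 4 called genes with the largest change per list, and the 10 largest rises and falls outside the lists at 50 CPM or more. Genes given for libraries and depth, such as Actb, were chosen after their values were seen. Some genes that the naming rule gives are not reported here.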

Additional observations from a re-analysis of the deposited data

Results flagged for a closer look

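For some genes the difference between Gzma-high and Gzma-low cells was another among cycling than among non-cycling cells, by an interaction term of the same edgeR fit with Benjamini-Hochberg adjustment over all genes. It called 856 of 12510 genes (6.84%), 430 higher and 426 lower, and with scaling to total UMIs only 35.8% in place of 50.2% of the calls were higher. The difference of the log2 differences was 0.48 for Itgae, 1.30 for Il10, 0.82 for Il7r, 0.31 for Bcl2, 0.83 for Havcr2, 0.28 for Il2rb and -0.42 for Ccl4. Outside the lists the largest were 1.12 for Gm45716, 0.88 for Hspa1a, 0.80 for Ryr1, 0.74 for Klk8 and 0.74 for Hspa1b. Hspa1a and Hspa1b are near-identical copies, so the split of reads between them is uncertain. The most negative were -6.90 for Dmbt1, -6.46 for Tspan8, -6.28 for Spink4, -6.13 for Phgr1 and -5.98 for Agr2, all genes of gut epithelium. Epithelial markers summed to 19.6 and 26.8 CPM in the cycling Gzma-high cells, against 648 and 1309 CPM in the cycling Gzma-low cells. Of these 17 genes, 4 were still called without shared barcodes and 0 under every alternative.

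The hashtag libraries, which enter no comparison, held gene UMIs at the barcodes of the cycling Gzma-high cells, 10435 in replicate 1 (median 5 per cell) and 12167 in replicate 2 (median 14.5). This is 1.07 and 1.34 per 1000 UMIs of the expression libraries at the same barcodes.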

How the results depend on the processing

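Calls between cycling and non-cycling Gzma-high cells numbered 6483, and 3364 with cells thinned before the sums, 2810 with cells thinned before the rule and 2030 at 3000 to 8000 UMIs; other settings gave 4536 to 7067. Between the cycling classes there were 5296 calls, and in the same order of settings 1448, 922 and 1342, with 2247 for Gzma at 1% to 3%, 3236 without shared barcodes, high doublet scores or other cell types and 3223 with a minimum of 3000 UMIs in addition. The difference of differences, with 856 calls, fell to 69, 49 and 9 in that order, to 51 for Gzma at 1% to 3%, to 53 without shared barcodes, 300 without other cell types, 509 without high doublet scores, 78 without all of these and 227 with a minimum of 3000 UMIs in addition. It was 462 at 3000 and 118 at 8000 UMIs or more, 536 by DESeq2 and 1681 without the low-count filter. Without the replicate block, which pairs the classes of a library because they were drawn from it, the 3 comparisons had 5857, 4560 and 203 calls. Total scaling moved the median of all genes in the first comparison to -0.12.

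The mean share of T cells that were cycling and Gzma-high was 5.65% ± 1.48 (SD, n = 2), and 3.42% with thinning before the rule, 4.04% with 5 cycle genes, 2.56% for Gzma at 1% to 3%, 2.19% at 3000 to 8000 UMIs, 7.46% at 3000 and 28.9% at 8000 UMIs or more; Gzmb's share was 97.3% without shared barcodes. S100a8 in the first comparison reversed to -0.80 without other cell types, -0.81 without these, shared barcodes and doublets, and -0.64 at 3000 UMIs in addition; these filters remove cells by that gene among others. In the difference of differences, Itgae (-0.062), Ccl4 (0.033), Il2rb (-0.099) and Hspa1a (-0.19) reversed at 3000 to 8000 UMIs, Il7r (-0.0061) at 8000 UMIs, Bcl2 (-0.024 and -0.015) with thinning before the sums and the rule, Il2rb with thinning before the rule (-0.20), without shared barcodes (-0.094), without 3 kinds of cells (-0.069) and at 3000 UMIs in addition (-0.16), Spink4 in the last setting (0.17) and Agr2 without other cell types (0.10). Of 81 called genes named in the first comparison 64 passed in every alternative, and of 46 in the second 40. Leaving out a replicate leaves 1 library with no test; 0 of 164 and 0 of 92 named values reversed. The causes were not tested.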
